A study of Symphysodon aequifasciata with 2 samples.

Results

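Among the assembled features measured in the brains of 2 discus fish (Symphysodon aequifasciata, an ornamental cichlid), 262 of 40209 (0.652%) carried a name that points to a transposable element or to a gene derived from one. A feature was taken when its protein annotation or its Swiss-Prot description held the text "transpos", "reverse transcriptase" or "LINE-1" in any case, a rule on names that uses no expression value. The annotation chose 193 features and the Swiss-Prot description 102, with 33 chosen by both. The same text also caught 2 features of Midline-1, a ubiquitin ligase whose name happens to hold it, and 4 of telomerase reverse transcriptase. These 6 were kept and are described apart.

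Brain RNA, selected for poly(A) tails, from 1 male (titled Obrain) and 1 female (titled Tbrain), both 1 year old and killed under the anaesthetic MS-222, was sequenced as 1 library each. The labels do not explain the first letters of the titles, and the sexes are given here as labelled. Were the 2 sex labels exchanged, every direction given below would turn. Sex cannot be told apart from the individual fish or its library, and no test between the sexes was possible, so every difference describes these 2 libraries, called the male brain and the female brain. Levels are in TPM, a share of the library that is divided by length, and ratios are log2 of female over male with 0.5 TPM added to each, so a negative ratio means a higher level in the male brain.

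Transposable elements are stretches of DNA that can move or copy themselves within a genome. DNA transposons such as Tc1/mariner, a family widespread in fish genomes, are cut out and reinserted by a transposase. Retrotransposons are copied through RNA by a reverse transcriptase: LINE elements prime this copying at the target site, and LTR elements of the Ty3/gypsy kind carry long terminal repeats like those of retroviruses. Most copies in vertebrate genomes are damaged remnants, and many lie inside the introns or ends of host genes, so that element sequence can also be read as a stretch of a host transcript. Some transposases have become host genes, among them the piggyBac-derived and pogo-derived proteins.

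By the names, 103 features belonged to Tc1/mariner, 60 to transposases of no named family, 45 to LINE elements, 13 to reverse transcriptases of no named family and 9 to Ty3/gypsy elements. These 230 features are called element names below. The other 32 carried names of host genes: 18 piggyBac-derived proteins, 8 further transposon-derived proteins, the 4 telomerase and the 2 Midline-1 features. A protein domain, which the choice did not use, was listed for 197 of the 262, and in 188 of them it was a transposon domain. A single domain name was read per feature. Counted as transposon domains were transposase, reverse transcriptase, integrase (rve) and endonuclease-type (Exo_endo_phos) domains. The most frequent was DDE_3, the catalytic domain of many transposases, in 120 features, followed by RVT_1, the reverse transcriptase domain, in 42. Another domain stood in 9 features, and 65 had none.

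The features were mostly fragments. Their median length was 406.5 bases, against 922.5 bases for the 18668 features with other protein names, and 62.6% were under 500 bases against 37.7%. Only 32 reached 1000 bases. They came from 216 assembly components, which are groups of contigs that share sequence. Of these components, 41 held more than 1 of the features, up to 4, and together 87 of them. Such features can share reads, so their values are not independent, and the split of reads among near-identical copies is uncertain.

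The 262 features summed to 10131 TPM in the male brain and 8146 TPM in the female brain, a female level 0.804 times the male one. These sums were 1.08% and 0.864% of all TPM listed. The median log2 ratio was -0.34, with quartiles of -0.61 and -0.06, against -0.07 for other named features and -0.07 for all features. The male brain held the higher value for 206 features and the female brain for 55, with 1 equal. That put 78.6% of the transposon-derived features higher in the male brain, against 57.9% of other named features. The shift was shallow and wide rather than steep. In the male brain 23 features (8.78%) were at least 2-fold higher, against 7.71% of other named features and 10.1% of all features. In the female brain 1 feature (0.382%) was, against 3.56% and 5.02%. The share past 2-fold towards the male was thus close to the background, while the share in the other direction lay below it. In a bulk sample, fewer cells of a type and less RNA per cell cannot be told apart.

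**Figure D1:**
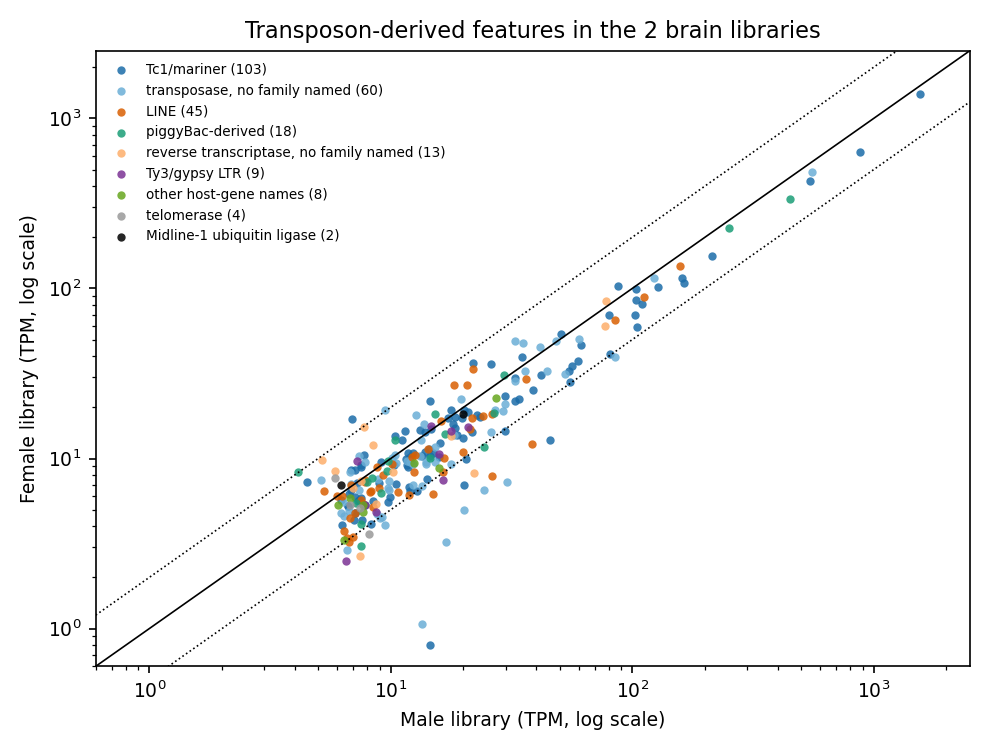
Level of each of the 262 features in the male brain (horizontal, TPM, log scale) and in the female brain (vertical, TPM, log scale), coloured by element class with the number of features in brackets. The solid line marks equal levels and the dotted lines 2-fold differences in TPM. Most points lie below the solid line but above the lower dotted line, and the 10 most abundant features all lie below the solid line.

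The number of reads behind a value could be estimated, since the values of short features mostly moved in steps of 1 read. These reads gave a 95% counting interval for each fold (exact binomial, for counting error only). This interval lay wholly on the male side for 110 features (42.0%), against 32% of other named features and 26.3% of all features. It lay wholly on the female side for 12 features, against 19.6% of other named features and 17.3% of all features. For features over 560 bases the reads were extrapolated and are approximate.

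Length went with the spread of the ratios more than with their centre. Under 500 bases, 164 features had a median log2 ratio of -0.36, against -0.17 for other named features of that length. Of them 22 (13.4%) passed 2-fold towards the male, against 17.6% of the other named features, and 1 passed it towards the female, against 8.31%. At 500 bases and over, 98 features had a median of -0.34, against -0.05 for 11626 other named features and 0.00 for 5275 unnamed ones. The male brain was higher for 84 of the 98 (85.7%), against 57.6% of the other named features. At this length 1 feature passed 2-fold towards the male, against 1.71% of the other named features, and 0 towards the female, against 0.688%. The counting interval lay on the male side for 61.2% of the 98, against 37.8% of the other named features.

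Finer bins of length showed the same centre. Up to 250 bases the median log2 ratio was -0.43 for 34 transposon-derived features and -0.20 for other named ones. From there to 300 bases it was -0.38 and -0.18, and from 300 to 500 bases -0.33 and -0.16. In each of these bins the other named features were themselves below 0. Above 500 bases the other named features stood near 0 and the transposon-derived features did not move with them. Between 500 and 1000 bases the medians were -0.35 for 66 features and -0.02 for other named ones. Between 1000 and 2000 bases they were -0.32 and -0.03, with all 23 features higher in the male brain. Above 2000 bases they were -0.32 and -0.08, with 8 of 9 higher in the male brain.

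**Figure D2:**
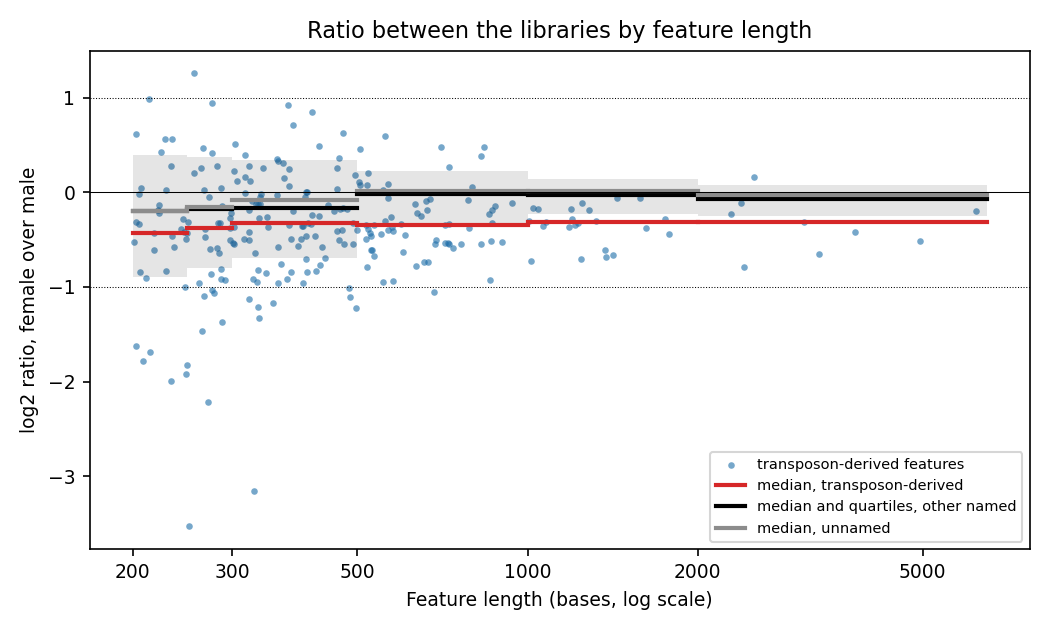
Log2 ratio of female over male TPM (vertical, 0.5 TPM added) against feature length (horizontal, bases, log scale), with 1 point per transposon-derived feature. Red, black and grey lines give the medians of transposon-derived, other named and unnamed features in 6 bins of length, the shaded band the quartiles of the other named features, and the dotted lines a 2-fold difference. The red line stays between -0.43 and -0.32, and the black line comes up from -0.20 to -0.02 and ends at -0.08.

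The features of 1000 bases and over have small counting error, since each rests on many reads, though these reads were extrapolated. Their intervals do not cover the split of reads among near-identical copies. The male brain was higher for 31 of these 32 features, against 59.3% of other named features of that length. The exception was a Midline-1 feature. The counting interval lay on the male side for 25 of the 32 (78.1%), against 40.2% of the other named features. On the female side it lay for 1 of the 32, against 2097 of the 8945 other named features. All 28 with an element name were higher in the male brain, with log2 ratios from -0.79 to -0.06. Their median was -0.32, against -0.06 for the other named features. The most abundant of them, DN14429_c0_g8 (1212 bases), matched the transposase of Tcb1, a Tc1-like element first named in the nematode Caenorhabditis briggsae. It stood at 546 TPM in the male brain and 430 TPM in the female brain, 1.27-fold higher in the male (1.24 to 1.29). DN14694_c1_g1 (1417 bases), also a Tcb1 match, stood at 59.8 and 37.5 TPM, 1.60-fold higher in the male brain (1.5 to 1.70). At the other end, DN14825_c3_g10 (1441 bases), a Tcb2 match, stood at 20.2 and 19.3 TPM, and its interval held equality (0.954 to 1.15). The domain read for it was 7tm_1, that of host receptors, and not a transposase domain. The same domain was listed for DN12849_c3_g2 (3081 bases), also among the 28, a Tc1 match annotated as a coiled-coil domain protein. The size of the difference thus varied by more than counting error between the 2 Tcb1 matches. The differences were smaller in DN13939_c0_g1 (1285 bases) and DN14494_c0_g1 (1199 bases), at 19.6 and 17.2 TPM and at 18.5 and 15.2 TPM. They were 1.14-fold (1.03 to 1.27) and 1.22-fold (1.09 to 1.37) higher in the male brain.

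**Figure D3:**
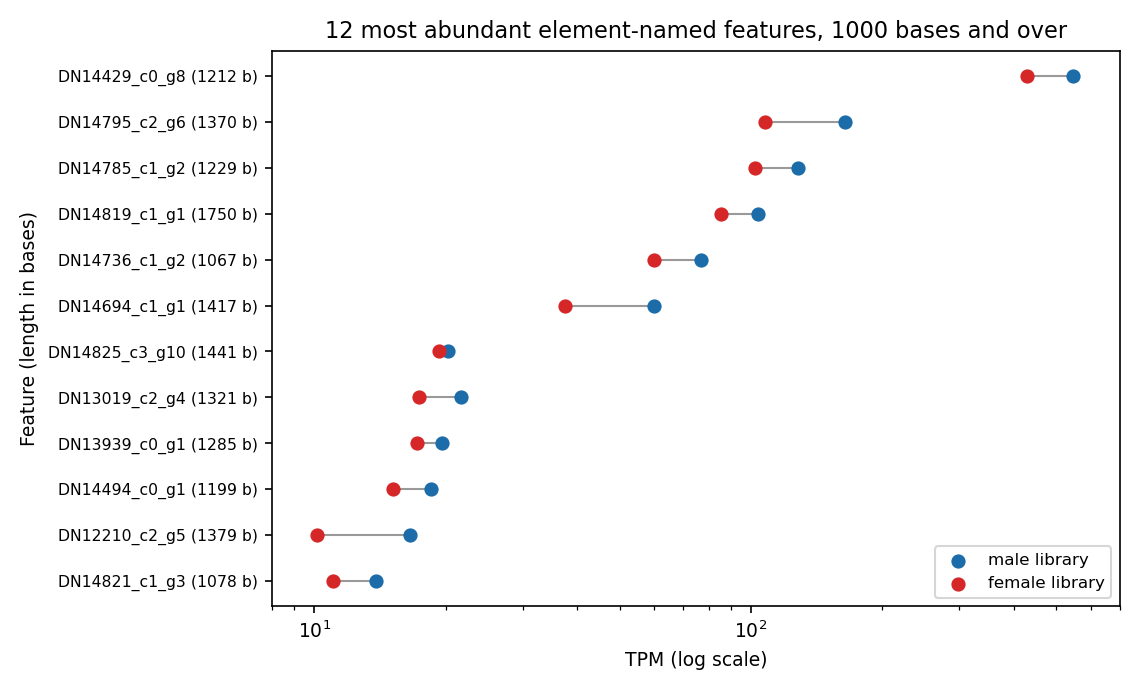
TPM (horizontal, log scale) in the male brain (blue) and the female brain (red) of the 12 most abundant features with an element name and at least 1000 bases, with the length in brackets. Each line joins the values of 1 feature. In all 12 the blue point lies to the right of the red one, from 546 against 430 TPM in the top feature to 20.2 against 19.3 TPM in the closest pair.

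Tc1/mariner was the largest and most abundant class. Its 103 features summed to 5989 TPM in the male brain and 4784 TPM in the female brain, a ratio of 0.799, and their median log2 ratio was -0.34. Among the 43 of 500 bases and over the male brain was higher for 40, with a median of -0.33. The top feature of all 262, DN14370_c1_g1 (299 bases), a Tcb1 match with the helix-turn-helix domain that binds transposon ends, ranked 45 among all 40209 features. It stood at 1555 TPM in the male brain and 1384 TPM in the female brain, 1.12-fold higher in the male (1.07 to 1.18). DN14536_c1_g1 (528 bases), a Tcb1 match with the DDE_3 domain, stood at 880 and 638 TPM, 1.38-fold higher in the male brain (1.34 to 1.42). DN14795_c2_g6 (1370 bases), a match to Tc1 of Caenorhabditis elegans, stood at 165 and 108 TPM, 1.53-fold higher (1.47 to 1.58). DN14819_c1_g1 (1750 bases), named for a frog Tc1 transposase, stood at 104 and 85.3 TPM, 1.22-fold higher (1.17 to 1.26). All of these lay on the male side beyond counting error, and none reached 2-fold.

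Within Tc1/mariner, the 27 features matched to Tcb1 had a median log2 ratio of -0.28, and 20 of them were higher in the male brain. The 20 matched to Tc1 had a median of -0.35, with 17 higher in the male brain, and the 13 matched to Tcb2 a median of -0.47, with 12. The 4 matched to Tc3, another nematode element of the family, were divided. DN14785_c1_g2 (1229 bases) stood at 128 and 102 TPM, 1.26-fold higher in the male brain (1.20 to 1.31). DN14524_c2_g2 (384 bases) stood at 22.0 TPM in the male brain and 36.4 TPM in the female brain, 1.66-fold higher in the female (1.30 to 2.13). Features matched to one element thus lay on both sides.

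Transposases with no family in their name were mostly matched to frog proteins. The 60 features summed to 1782 TPM in the male brain and 1457 TPM in the female brain, a ratio of 0.818, with a median log2 ratio of -0.38. Of them 8 (13.3%) passed 2-fold towards the male, which lies between the 10.1% of all features and the 16.2% of all features under 500 bases. DN13229_c4_g5 (322 bases) led them with 554 and 485 TPM, 1.14-fold higher in the male brain (1.06 to 1.23). DN12777_c4_g1 (662 bases) stood at 124 and 116 TPM, 1.07-fold higher (1.00 to 1.14). DN14680_c3_g5 (486 bases) was at 85.1 TPM in the male brain and 39.3 TPM in the female brain, 2.16-fold higher (1.90 to 2.47). It was the only one of the 28 features with a mean of 50 TPM or more that passed 2-fold in either direction.

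LINE names covered 45 features with 926 TPM in the male brain and 726 TPM in the female brain, a ratio of 0.784, and a median log2 ratio of -0.37. The male brain was higher for 37 of 45, and for 15 of the 17 of 500 bases and over. The counting interval held equality for 30 of the 45. DN14734_c2_g1 (865 bases), a match to R2, an element that in insects inserts into ribosomal RNA genes, stood at 112 and 89.4 TPM, 1.25-fold higher in the male brain (1.18 to 1.33). DN13144_c1_g3 (827 bases), a match to R1, which in insects also uses ribosomal RNA genes, went the other way, at 20.6 TPM in the male brain and 27.0 TPM in the female brain, 1.31-fold higher in the female (1.16 to 1.48). The 8 features matched to BS, a LINE of Drosophila, were all higher in the male brain, with a median of -0.54. The interval held equality for 4 of these 8. The longest of the 8, DN12210_c2_g5 (1379 bases), stood at 16.6 and 10.1 TPM, 1.64-fold higher in the male brain (1.45 to 1.85). Of 15 features named for a LINE-1 polyprotein of the carp Labeo rohita, 14 were higher in the male brain, with a median of -0.39. The interval held equality for 11 of these 15. The domain listed for the top LINE feature, DN14596_c4_g1 (223 bases), was Rhodanese and not a transposon domain. That feature stood at 158 and 135 TPM, and its interval held equality (0.914 to 1.47). So did that of DN14414_c0_g1 (269 bases), named for the reverse transcriptase HmRTE-e01 in a medaka protein record, at 84.9 and 65.0 TPM (0.996 to 1.70). DN13019_c2_g4 (1321 bases), one of the Labeo-named features, stood at 21.6 and 17.4 TPM, 1.24-fold higher in the male brain (1.13 to 1.37).

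Among the classes of element names, reverse transcriptases of no named family were nearest to equality. Their 13 features summed to 263 TPM in the male brain and 242 TPM in the female brain, a ratio of 0.921, with a median log2 ratio of -0.06. Only 8 of 13 were higher in the male brain. DN13985_c1_g2 (503 bases) stood at 77.7 and 83.9 TPM, with an interval that held equality (0.836 to 1.02). DN14736_c1_g2 (1067 bases) stood at 77.0 and 60.0 TPM, 1.28-fold higher in the male brain (1.21 to 1.36). DN11825_c1_g5 (348 bases) stood at 17.8 and 13.6 TPM, with an interval that held equality (0.883 to 1.94). With so few features, the class median rested on the split between such features.

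The 9 Ty3/gypsy features were at low levels, from 6.52 to 20.8 TPM in the male brain, and summed to 116 and 85.9 TPM, a ratio of 0.741. Their median log2 ratio was -0.52, and 7 were higher in the male brain. DN13012_c2_g4 (2415 bases), a match to the Drosophila element 17.6, stood at 8.70 and 4.83 TPM, 1.8-fold higher in the male brain (1.59 to 2.04). The domain read for it was an endonuclease-type one (Exo_endo_phos_2). DN13898_c0_g6 (4945 bases), a match to the Drosophila element 412, stood at 7.85 and 5.34 TPM, 1.47-fold higher (1.35 to 1.59). The 2 short ones with the highest levels, DN15780_c0_g1 (218 bases) and DN14478_c1_g1 (246 bases), had intervals that held equality, and so did DN13979_c0_g6 (519 bases), at 14.7 and 15.6 TPM. The class rests on names: DN13979_c0_g6 carried DDE_3, a domain of transposases, while RVT_1 was listed for 6 of the 9.

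**Figure D4:**
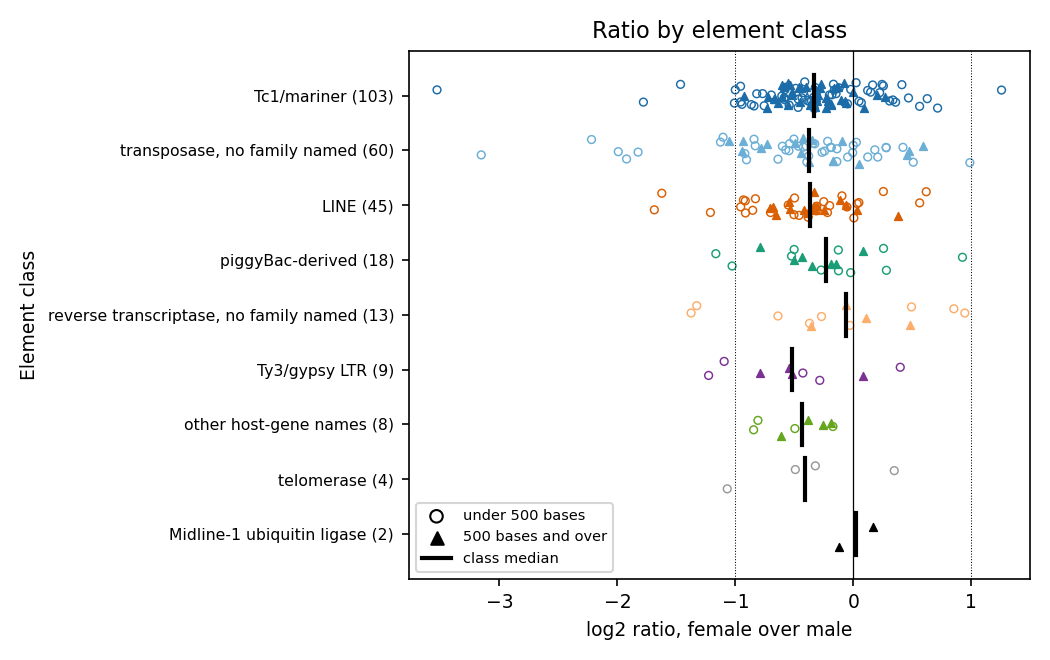
Log2 ratio of female over male TPM (horizontal, 0.5 TPM added) of each feature by element class (vertical, number of features in brackets). Open circles are features under 500 bases, filled triangles those of 500 bases and over, black bars the class medians, and dotted lines a 2-fold difference. The medians of the 5 classes of element names run from -0.52 to -0.06, and 22 of the 23 points past the left dotted line are open circles.

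Names of host genes gave values near those of the element names. For all 32 the median log2 ratio was -0.30 and the sum ratio 0.806, against -0.35 and 0.804 for the 230 element names. Among the 18 piggyBac-derived features, named for proteins built from a former transposase, 14 were higher in the male brain and the median was -0.23. Whether these features are host genes or piggyBac elements was not tested. DN12431_c1_g2 (527 bases), named for the piggyBac-derived protein 3, stood at 452 and 335 TPM, 1.35-fold higher in the male brain (1.29 to 1.41). DN14610_c1_g1 (877 bases), named for protein 4 of the group, stood at 251 and 227 TPM, 1.11-fold higher (1.07 to 1.15). These 2 features held most of the 912 TPM of the group in the male brain. A second feature named for protein 3, DN12431_c0_g1 (377 bases), stood at 4.14 TPM in the male brain and 8.31 TPM in the female brain, 2.01-fold higher in the female (1.13 to 3.66), though under 2-fold on the ratio scale. Of the others named for protein 3, DN13865_c0_g1 (505 bases) stood at 29.4 and 31.1 TPM (0.80 to 1.12), DN3125_c0_g2 (297 bases) at 16.9 and 13.9 TPM (0.727 to 2.06) and DN12250_c2_g5 (520 bases) at 7.54 and 4.14 TPM, 1.82-fold higher in the male brain (1.23 to 2.73). The intervals of the first pair held equality. Both features of component DN11848_c2, named for protein 4, were higher in the male brain, DN11848_c2_g4 (277 bases) at 24.4 and 11.7 TPM, 2.08-fold (1.19 to 3.78), and DN11848_c2_g1 (688 bases) at 14.5 and 10.1 TPM, 1.44-fold (1.18 to 1.76). Of the short features for protein 4, intervals held equality for DN3741_c0_g1 at 26.7 and 18.4 TPM, DN11588_c1_g13 at 15.3 and 18.4 TPM, and DN13686_c0_g1 at 10.5 and 12.8 TPM.

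All 8 further features named for transposon-derived host proteins were higher in the male brain, with log2 ratios from -0.85 to -0.17. DN12280_c1_g1 (574 bases), named for a pogo-derived protein with a KRAB domain, stood at 27.2 and 22.7 TPM, 1.20-fold higher (1.02 to 1.41). The domain listed for it was DDE_1, a transposase domain. GIN1, a host protein with the integrase domain of a Ty3/gypsy element, stood at 12.5 and 9.45 TPM in DN13410_c0_g6 (1621 bases), 1.32-fold higher (1.17 to 1.48). DN12233_c3_g2 (287 bases), named for the LINE-1 type transposase domain protein 1, which in mammals derives from the RNA-binding protein of LINE-1, stood at 15.8 and 8.83 TPM, and its interval held equality (0.957 to 3.50).

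Of the features caught by their wording alone, the 2 of Midline-1 were divided, and 3 of the 4 of telomerase were higher in the male brain. The Midline-1 features stood at 19.9 and 18.3 TPM in DN12354_c0_g10 and at 6.21 and 7.03 TPM in DN12354_c0_g5. Telomerase, which extends chromosome ends by reverse transcription of its own RNA, was covered by 4 short features (DN11061_c0_g1, DN11061_c0_g2, DN11061_c0_g3 and DN14375_c1_g8) of 279 to 409 bases at 3.61 to 8.12 TPM in either library. The telomerase features summed to 28.2 TPM in the male brain and 21.7 TPM in the female brain, a ratio of 0.769. Their median log2 ratio was -0.41, though all 4 telomerase intervals held equality.

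The largest ratios came from few reads. DN13509_c0_g13 (252 bases), a Tcb2 match, stood at 14.5 TPM in the male brain and 0.80 TPM in the female brain (about 0.998 reads), a fold of 18.1 with a counting interval from 2.89 to 750.1. DN13783_c3_g6 (328 bases), a transposase, stood at 13.5 and 1.07 TPM, a fold of 12.6 (4.0 to 63.2) on about 42.0 and 2.99 reads. Next came DN14151_c3_g3 (272 bases) at 17.0 and 3.25 TPM, 5.22-fold higher in the male brain (2.00 to 17.3). Others of the steepest were DN11831_c0_g6 at 30.3 and 7.24 TPM, DN14676_c2_g2 at 20.2 and 4.96 TPM, and DN13993_c3_g2 at 24.4 and 6.54 TPM. All were under 500 bases. At 500 bases and over the steepest was DN13667_c2_g1 (683 bases), a transposase with the DDE_3 domain, at 6.57 and 2.91 TPM, 2.26-fold higher (1.60 to 3.27). Others of this length were close to 2-fold: DN12444_c0_g3 (554 bases) at 9.05 and 4.46 TPM, DN12872_c0_g1 (577 bases) at 9.18 and 4.56 TPM, both transposases, and DN13448_c7_g2 (858 bases), a Tc1 name, at 8.3 and 4.12 TPM.

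Higher values in the female brain were fewer and smaller. DN14458_c0_g8 (257 bases), a Tc1 match, was the only feature past 2-fold on the ratio scale, at 6.89 TPM in the male brain and 17.2 TPM in the female brain, 2.49-fold higher (1.16 to 5.98) on about 22.5 reads in the female brain. DN12989_c0_g4 (559 bases), a transposase with a helix-turn-helix domain, stood at 32.6 and 49.3 TPM, 1.51-fold higher in the female brain (1.33 to 1.73). DN14595_c3_g7 (839 bases), a transposase with the DDE_3 domain, stood at 12.8 and 17.9 TPM, 1.40-fold higher (1.20 to 1.63). DN14440_c2_g1 (702 bases), named reverse transcriptase-like, stood at 8.47 and 11.99 TPM, 1.42-fold higher (1.14 to 1.76). These 4 features came from 3 element classes. Among short features, DN1184_c0_g1 (416 bases), a reverse transcriptase, stood at 5.19 and 9.77 TPM, 1.88-fold higher in the female brain (1.20 to 2.99). The intervals of DN14753_c1_g2 (214 bases) at 9.44 and 19.2 TPM, DN5709_c0_g1 (277 bases) at 7.75 and 15.4 TPM and DN14173_c1_g5 (725 bases) at 7.54 and 9.20 TPM held equality.

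Direction within components varied. In 22 of the 41 components with more than 1 of the features, all were higher in the male brain, and in 2 all were higher in the female brain. With 78.6% of all the features higher in the male brain, these counts are not read as agreement within components. Component DN14251_c1 held 4, at 29.6, 55.1, 52.5 and 7.12 TPM in the male brain. In the female brain the same features stood at 14.6, 28.2, 31.4 and 4.76 TPM, so all 4 were lower there. Component DN14676_c2 was divided, with DN14676_c2_g2 (249 bases) 4.07-fold higher in the male brain and DN14676_c2_g6 (506 bases), at 7.41 and 10.4 TPM, 1.40-fold higher in the female brain (1.03 to 1.94). The 790 features of these components that the wording did not choose had a median log2 ratio of -0.17. Those of 500 bases and over stood nearer to 0, at -0.09 for 236 named and 0.03 for 88 unnamed ones.

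A domain in place of a name gave a smaller shift of the same sign. Outside the chosen features, 316 carried a domain counted as a transposon domain, 143 of them DDE_3 and 90 RVT_1. The domains counted also included the integrase and endonuclease-type ones. Whether the features outside are elements or host genes was not tested. The median log2 ratio of the 316 was -0.22, and 212 of them were higher in the male brain. At 500 bases and over, 90 such features had a median of -0.19 with 64 higher in the male brain. The chosen features of that length with the same domains reached -0.38 for DDE_3, with 44 of 49 higher in the male brain, and -0.38 for RVT_1, with 14 of 16. The features outside had -0.17 for DDE_3 (23 of 32) and -0.21 for RVT_1 (16 of 24). For the helix-turn-helix domain HTH_Tnp_Tc3_2 the order was the other way, with -0.13 for the chosen (4 of 6) and -0.20 for the others (6 of 6).

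**Figure D5:**
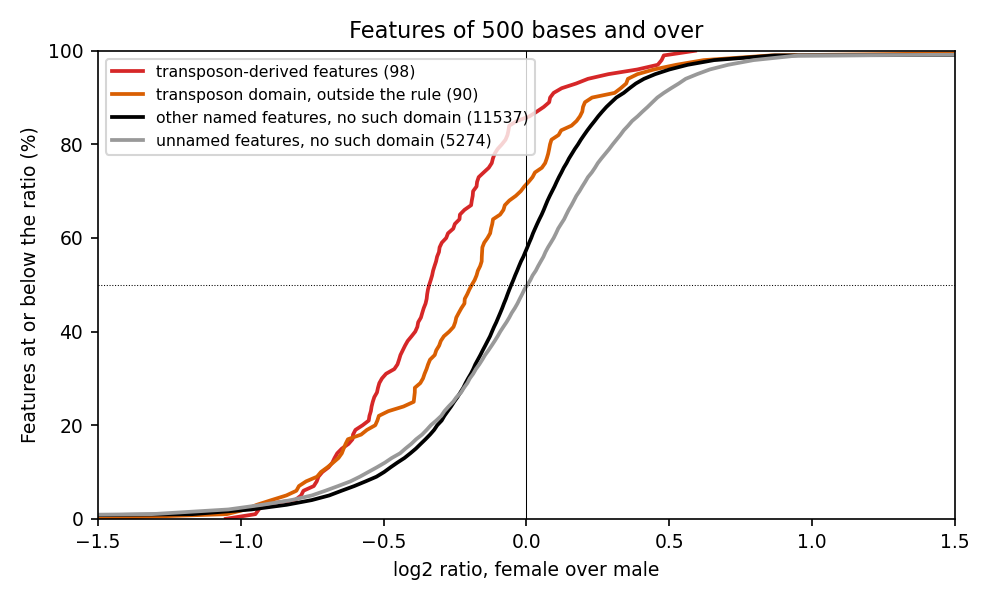
Percent of features of 500 bases and over (vertical) at or below a given log2 ratio of female over male TPM (horizontal). The curves are the 98 transposon-derived features (red), 90 features with a transposon domain outside the choice (orange), and the 11537 other named (black) and 5274 unnamed (grey) features with no such domain. At a percent of 50 the curves cross -0.34, -0.19, -0.05 and 0.00, and the red curve is left of the black one over most of its height.

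The contrast with other names was present at each level. At a mean under 10 TPM the median log2 ratio was -0.35, against -0.13 for other named features. From 10 to 50 TPM it was -0.35 against -0.06, and from 50 TPM up it was -0.34 against 0.04, with 25 of 28 transposon-derived features higher in the male brain. The lowest group lies close to the floor of 6.01 TPM in the higher library, so features there could enter through 1 library alone. Its median levels were 7.54 TPM (male) and 6.05 TPM (female), against 7.47 and 6.81 TPM for other named features. How far this floor shapes the ratios was not tested. The 10 most abundant held 48.7% of the summed level in the male brain and 49.3% in the female brain, and all 10 were higher in the male one. Without these 10 the sum ratio was 0.795, and without the top feature alone it was 0.788, against 0.804 with all.

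The values of these features were less often whole numbers of reads than those of other features. Among features in which the read step was measured at each length and the value was under 30 reads, 73.8% of 65 male values lay within 0.1 of a whole number. For other named features it was 96.3% of 4151. In the female brain the shares were 75.8% of 91 and 95.9% of 4652. By chance 20% of values would lie that close. How far this enters the ratios was not tested. Names were not always single, as 10 features had a Swiss-Prot match to an element and an annotation for another protein. DN13509_c0_g13, for one, was annotated as an ADAMTS2-like protease. A gene name from the KEGG database, which the choice did not use, was listed for 27 of the 262 features. These were names of host genes, such as calcium-sensing receptor (5 features), ryanodine receptor 3 (4) and gamma-aminobutyric acid type B receptor (3). For 2 features the name was midline 1. Whether such features are element or host transcripts was not tested.

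Genes known to silence transposons or act on their products stood near equality at the median. Of a list of 48, 23 were matched, and 0 were at least 2-fold apart. That is near the background, since 19 of the 23 had 500 bases or more, where 0.747% and 1.91% of all features passed 2-fold towards the female and the male. The median log2 ratio was -0.04, with 10 above 0 and 13 below. For genes with more than 1 matched feature, the values are those of 1 of them. The features matched to dnmt3a and dnmt3b have the same annotation, a DNMT3B-like protein, and come from one component, so they may be 1 gene counted under both names. RNASEH2B, a subunit of the nuclease that removes RNA from DNA, had the lowest ratio, -0.69, at 26.8 and 16.4 TPM, 1.63-fold higher in the male brain (1.46 to 1.83). DICER1, which cuts double-stranded RNA, followed with -0.62 at 10.1 and 6.35 TPM in a feature of 253 bases, with an interval that held equality (0.620 to 4.36). The highest ratios were 0.33 for RNASEH2C, at 18.4 and 23.2 TPM (1.054 to 1.52), and 0.30 for DNMT3B, a DNA methyltransferase, at 18.6 and 23.0 TPM in a feature of 204 bases (0.609 to 2.53). CBX5, a heterochromatin protein with nearly the same ratio of 0.30, stood at 24.0 and 29.6 TPM, 1.23-fold higher in the female brain (1.16 to 1.31). The nuclease subunits RNASEH2B and RNASEH2C thus lay at opposite ends. Another subunit, RNASEH2A, lay between them at 7.12 and 7.22 TPM, with an interval that held equality (0.841 to 1.22). CBX1, a protein related to CBX5, led the list by level, at 76.9 and 77.9 TPM. The germline genes of the piRNA pathway piwil1, piwil2, ddx4 and mael were not matched among the features. The tudor domain genes TDRKH and TDRD7 of the list were matched. TDRKH stood at 9.19 and 9.47 TPM, with an interval that held equality (0.926 to 1.15). TDRD7 stood at 8.24 and 9.17 TPM, 1.11-fold higher in the female brain (1.04 to 1.19).

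Markers of the labelled tissue were present in both libraries, with 6 of 8 brain genes matched. Higher in the female brain were the neuronal gene SNAP25 at 2201 and 2642 TPM, FABP7 of glia at 1652 and 2443 TPM and GFAP of glia at 218 and 226 TPM. Higher in the male brain stood the neuronal genes ELAVL3 at 52.7 and 25.9 TPM, NEFM at 60.1 and 43.6 TPM and SYT1 at 80.6 and 64.6 TPM. Neuronal genes thus lay on both sides. All 3 blood markers were higher in the female brain, with sums of 833 and 1701 TPM, and the pituitary gene pomc stood at 4.4 and 22.7 TPM as the only one matched of 5. A rhodopsin feature was at 11.7 and 12.2 TPM, while 0 of 3 muscle and 0 of 4 germ cell markers were matched. Several features were matched for SYT1, ELAVL3, NEFM, FABP7, pomc and the blood markers hba1 and hbb. The values of each are those of a single feature. The part of neuronal, blood and pituitary RNA in the ratios was not tested.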

How the data were processed

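Brain poly(A) RNA of 1 male and 1 female was measured, 1 library each. The authors deposited 1 value per feature and library, taken here as TPM, in which reads are divided by length and scaled to a common total. The header gives no unit, and this reading rests on the values, since the 2 columns sum to nearly the same total (937828 and 943014) and Salmon gives TPM. Tools named in the submitters' processing notes are cutadapt, FastQC, Salmon and edgeR, with neither version nor purpose. The assembler and genome are not given in the sources used here. TPM fixes the total of a library, so a change in abundant features moves all others. The lowest value of the higher library was 6.01 TPM, so features below this in both libraries are not covered.

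Ratios were log2((female TPM + 0.5) / (male TPM + 0.5)); for low features this lies closer to 0 than the log2 of the TPM fold. Folds are ratios of TPM. A feature counted as apart at 2-fold on the ratio scale. With 1 library per sex no test was possible. Counts and medians were set beside those of features with other protein names in the same length range.

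Values of features of one length were mostly multiples of the worth of 1 read, less often so for the 262 features. This step was measured per length up to 380 bases, followed to 560 bases, and extended by a straight line beyond. The recovered totals were 26849651 reads (male) and 24709552 (female), of which 126994 and 91837 fell on the 262 features. Exact Clopper-Pearson 95% intervals cover counting error only, and they are too narrow where reads are duplicates or shared among copies.

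Features were named by rule: the 3 most abundant per class, the 6 largest ratios per direction over all features and over those of 500 bases and over, the 12 most abundant of 1000 bases and over, and host names at 10 TPM. The features of components DN14251_c1 and DN14676_c2, DN13898_c0_g6, CBX5, RNASEH2A, TDRKH, TDRD7 and the conflicting names were chosen after their values were seen. The members, gene lists and rules were chosen with earlier results of these data known, and the classes were refined after the names were read. Procedures were tested on simulated data. The software was SciPy 1.17.1, NumPy 2.4.6, Matplotlib 3.10.9 and pandas 2.3.3 in Python 3.11.15. No genome position or sequence is given.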

Additional observations from a re-analysis of the deposited data

How the results depend on the processing

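No paired analysis was possible because each sex had 1 library. Of 64 values recomputed under 16 other settings, 51 stayed within 1.5 times the count, the 95% order-statistic interval of the median or the counting interval of the sum. A count has no direction to turn, and none of the medians and sum ratios turned theirs. The median log2 ratio ranged from -0.36 to -0.27 over all features, from -0.41 to -0.28 under 500 bases and from -0.36 to -0.27 at 500 bases and over. It moved to -0.27 (all features, and those of 500 bases and over) when centred on the median of all features, -0.07, and to -0.29 (all) when centred on that of features of 1000 bases and over, -0.05. Features at least 2-fold higher in the female brain numbered 2 of 262 with a pseudocount of 0.1, 3 and 2 under these centrings and 0 of 193 by annotation alone. Of the 18668 other named features, 726 were with that pseudocount and 772 under the first centring. Features at least 2-fold higher in the male brain numbered 7 of 102 by Swiss-Prot alone. That is near the background of 7.71% of other named features and 10.1% of all features. At 4-fold the counts were 0 (female) and 3 (male) of 262, against 118 and 231 of the 18668 other named features. The sum ratio was 0.793 by Swiss-Prot alone, 0.788 without the most abundant feature and 0.795 without the top 10. The settings that leave out the most abundant features, the wording matches or the features with conflicting names were chosen after seeing the data. Depth limits single features under 500 bases, where the interval held equality for most.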
